A study of Mus musculus with 6 samples.

Results

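The genes described here encode the factors that start and drive protein synthesis on cytoplasmic ribosomes, the eukaryotic initiation factors (Eif genes) and elongation factors (Eef genes). They were chosen by symbol from the 34718 genes of the table: every name made of Eif and a digit, without the Eif2ak kinases, and every name starting with Eef1 or Eef2. That gave 67 genes, of which 60 are factor genes. The other 7 are 6 numbered pseudogenes and Eif2c5, a long non-coding gene in GENCODE that carries an old name of another gene family. Of the 58 genes with enough counts to test, 55 are factor genes and 3 are pseudogenes, and counts over the 58 include both. RNA sequencing was done on Hepa1-6, a mouse liver cancer cell line grown in culture. The groups were 3 control libraries with the hairpin shNC and 3 libraries with shZfp207, a hairpin against Zfp207, the mouse counterpart of the zinc finger gene ZNF207. No other allele, drug or time point separates the groups, and the labels do not say how many hairpins were used. Other effects of a hairpin and loss of Zfp207 cannot be told apart. They do not say either whether replicates were separate cultures, and the spread behind the p-values may therefore be technical.

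Translation starts when eIF2 with GTP brings the initiator tRNA to the small ribosomal subunit, which eIF3, eIF1 and eIF1A hold ready. The eIF4 proteins recognise the cap of the messenger RNA and unwind it, the subunit scans to a start codon, and eIF5 and eIF5B lead to joining of the large subunit. The exchange factor eIF2B then recharges eIF2 with GTP, a step slowed when stress kinases phosphorylate eIF2. During elongation eEF1A delivers each aminoacyl-tRNA, the eEF1B subunits recharge eEF1A, and eEF2 moves the ribosome along by a codon until the kinase eEF2K switches eEF2 off.

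Total gene counts were between 11933736 and 16248346 per library, so that 3 counts, the most that an observed 0 allows, were 0.185 to 0.251 CPM (counts per 1000000 counts). Values per library are given as CPM scaled by TMM, which corrects library totals for composition. Zfp207 had 139.8, 199 and 216 TMM-scaled CPM in controls 1 to 3 and 48.0, 48.5 and 47.3 in the knockdown libraries, so the groups did not overlap (log2 fold change -1.95, SE 0.17, adjusted p = 0.00236). Control 1 stood apart, with 10.5% of its counts from genes encoded by the mitochondrial genome, where controls 2 and 3 had 2.89% and 2.67% and the knockdown libraries 5.61% to 6.0%. Over the 58 genes it lay above both other controls in 22, below both in 34 and between them in 2. Its median absolute log2 distance from their mean was 0.28, against 0.06 between those 2. Each count below is therefore also given without it. Of 13 liver cell markers 11 passed the count filter, and they summed to 6493 to 7775 CPM in controls and 8028 to 8207 in knockdown libraries. Their called members moved apart, with Alb (1.29), Afp (1.12) and Apoa1 (0.85) higher and Apoa2 (-2.23), Krt8 (-0.67), Krt18 (-0.64) and Trf (-0.55) lower on the log2 scale, each with an adjusted p below 0.05. Only the call of Afp was kept in all 6 fits that left out a library. Apoa2 had 19, 15 and 16 counts in the controls and 5, 2 and 4 in the knockdown libraries, near the floor. Apoa1 had 22, 27 and 23 against 53, 44 and 40. Cd2, Cd3d, Cd3e and Cd8a had no count in any library. Leukocyte markers summed to 15.1 to 19.3 and 14.9 to 16.9 CPM, within which Csf1r rose from 2, 6 and 14 counts in the controls to 52, 48 and 45 (log2 fold change 2.68, adjusted p = 0.0117, lost without any one knockdown library, up to 0.0607). Endothelial markers summed to 0.617 to 1.76 and 1.46 to 2.05 CPM. Of the fibroblast markers only Dcn passed the count filter, with 1995 to 2275 CPM in controls and 2679 to 2791 in knockdown libraries (adjusted p = 0.0968), while Col1a1, Col1a2, Col3a1 and Pdgfrb had 0 to 11 counts. The part of these differences in the results below was not tested.

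Most of the factor genes did not pass the test between the groups, and their summed level was close to equal in the 3 knockdown libraries. Together the 67 genes took 3.02%, 3.62% and 3.63% of all counts in controls 1 to 3 and 3.30%, 3.29% and 3.30% in the knockdown libraries. The knockdown values thus lay between control 1 and the other 2 controls. On the deposited FPKM scale, which divides by gene length and library total, the mean level over the 6 libraries ran from 0.794 FPKM for Eef2k to 1964 FPKM for Eef2 among the factor genes tested. Next to Eef2 stood Eef1a1 with 1499.6 FPKM, and then Eif3h with 720.5 FPKM. This order leaves out the pseudogene Eif4a-ps4, listed at 869 FPKM, whose reads cannot be told apart from those of Eif4a1 (below). RNA of whole cultures was measured, so that fewer cells of a type and less RNA per cell cannot be told apart.

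Of the 58 genes with enough counts to test, 10 (17.2%) passed an adjusted p below 0.05 in edgeR's quasi-likelihood test, against a background of 20.6% of all 11975 genes tested. Eef2kmt, Eif2d, Eif2b5, Eif2b1 and Eif4enif1 rose, 5 genes beside a background of 9.92% called higher. Eef2k, Eif3e, Eif5b, Eif1a and Eif3d fell, 5 genes beside a background of 10.7% called lower. Upper-quartile scaling in place of TMM split the calls as 3 higher and 13 lower, beside 8.44% and 13.1% of all genes. The median log2 fold change, knockdown over control, was -0.11 over the 58 genes and -0.03 over all genes tested. Groups did not overlap for 33 of the 58 genes (56.9%), 13 higher and 20 lower in the knockdown, against 44.7% of all genes (22.3% higher, 22.4% lower). Without control 1 the count was 41 (70.7%), 14 higher and 27 lower, against 52.1% of all genes (26.1% in each direction), and every one of the 10 genes above stayed called with its direction. Over the 55 factor genes alone it was 10 called (18.2%), and without control 1 it was 39 (70.9%), 14 higher and 25 lower. Among genes with a mean of at least 30 CPM, 8 of 51 factor genes and pseudogenes were called (15.7%, all genes 22%), and without control 1 it was 37 of 51 (72.5%, all genes 61.3%). Leaving out each library in turn, Eef2k and Eif3e kept their call in all 6 fits, with a largest adjusted p of 0.0332 and 0.0499.

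**Figure D1:**
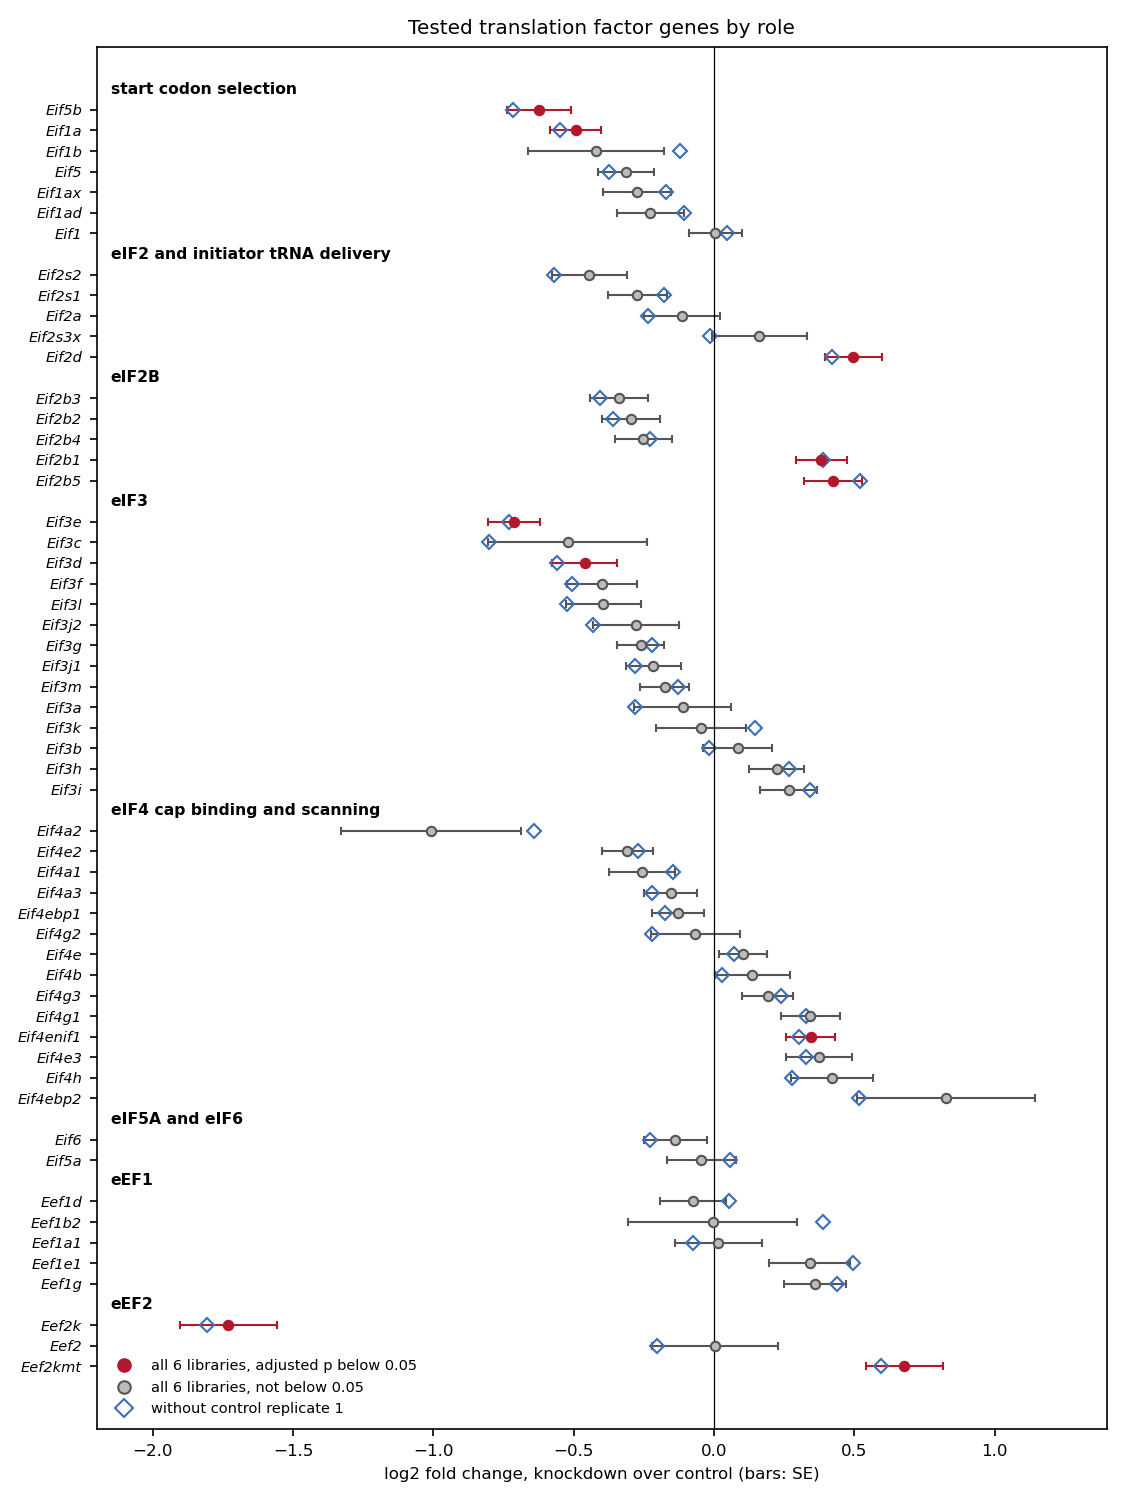
Log2 fold change (knockdown over control) of the 55 tested factor genes, 1 row per gene grouped by role. Circles with bars are the estimate and its SE from all 6 libraries, red where the adjusted p was below 0.05, and open diamonds are the estimate without control replicate 1. Eef2k lies far to the left of the others at -1.73, and the eIF3 and start codon groups have most of their genes left of 0.

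Factors of the elongation step were the most abundant, and the extreme of the whole family was the kinase that acts on one of them. Eef2k (ENSMUSG00000035064, GRCm38 chr7:120842831-120907219, + strand) had 10.5, 12.9 and 12 TMM-scaled CPM in controls 1 to 3 and 4.13, 3.28 and 3.24 in knockdown libraries 1 to 3. The lowest control was well above the highest knockdown library. The values come from 127, 187 and 196 counts in the controls and 63, 49 and 47 in the knockdown libraries, well above the floor of 3. Eef2k was 3.32-fold lower in the knockdown (11.8 ± 1.19 against 3.55 ± 0.503 CPM, SD, n = 3), a log2 fold change of -1.73 (SE 0.174, adjusted p = 0.00324, edgeR).

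Its substrate did not pass the test. Eef2 had 4217, 6928 and 7163 TMM-scaled CPM in the controls and 6436, 5926 and 5978 in the knockdown libraries. Control 1 was the lowest of the 6 and controls 2 and 3 the highest, with the knockdown libraries between them. Eef2 had a log2 fold change of 0.00 (SE 0.225, adjusted p = 0.995), which became -0.21 without control 1 (adjusted p = 0.00826). Per 1000 counts of Eef2 there were 2.49, 1.86 and 1.68 counts of Eef2k in the controls and 0.642, 0.553 and 0.542 in the knockdown libraries. That ratio, free of library scaling, did not overlap between the groups.

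Eef2kmt encodes the methyltransferase that modifies a lysine of eEF2, and it moved the other way from the kinase. It had 13.3, 14.3 and 17.4 TMM-scaled CPM in the controls and 25.5, 23.1 and 23.5 in the knockdown libraries, with every knockdown value above every control (log2 fold change 0.68, SE 0.138, adjusted p = 0.0185). The gene (ENSMUSG00000022544, chr16:5244152-5255983, - strand) shares 23% of its exonic bases with Alg1 and Gm15983 on the opposite strand. No source used here gives the strand setting of the counting, so reads of these genes may be mixed. Its call was lost without control 2 and without each knockdown library (adjusted p up to 0.0847).

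The promoters of the kinase and its substrate are shown because Eef2k had the lowest and Eef2 the highest FPKM of the tested factor genes. Sequences are 80 bases before to 10 bases after the RefSeq start (GRCm38.p6), read along the gene's strand, with motif matches in capitals.
Eef2k, chr7:120842751-120842840, + strand: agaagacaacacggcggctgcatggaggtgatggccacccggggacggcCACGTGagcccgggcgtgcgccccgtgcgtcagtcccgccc
Eef2, chr10:81176551-81176640, + strand: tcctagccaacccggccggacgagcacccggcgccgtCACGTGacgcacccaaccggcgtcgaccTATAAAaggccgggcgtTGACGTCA
Both hold CACGTG, the E-box letters read by MYC and by USF proteins, and the Eef2 stretch also holds TATAAA and the cAMP response element TGACGTCA. The 5 motifs were searched in windows of 300 bases on both strands, CACGTG and TGACGTCA reading the same on either. A promoter entry was found for 46 of the 60 factor genes. CACGTG was in 12 of the 46 (26.1%), against 8.09% of 27025 genes with an entry. Those genes were taken whatever their counts here, so they are not matched to the factor genes in expression. CCGGAAG, the core read by ETS factors, was in 16 (34.8%, all genes 9.93%). TGATGNAA, read by ATF4 with its partners, was in 2 (4.35%, all genes 4.51%), TGACGTCA in 1 (2.17%, all genes 2.03%) and TATAAA in 5 (10.9%, all genes 15.7%). Of the 8 called genes with an entry, Eef2k held CACGTG and, in another of its 3 listed windows, TGATGNAA. Eif3d held CCGGAAG. So did Eif4enif1, in a window other than the one nearest its gene start among the 4 listed. A match is a description of the letters and not a site.

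**Figure D2:**
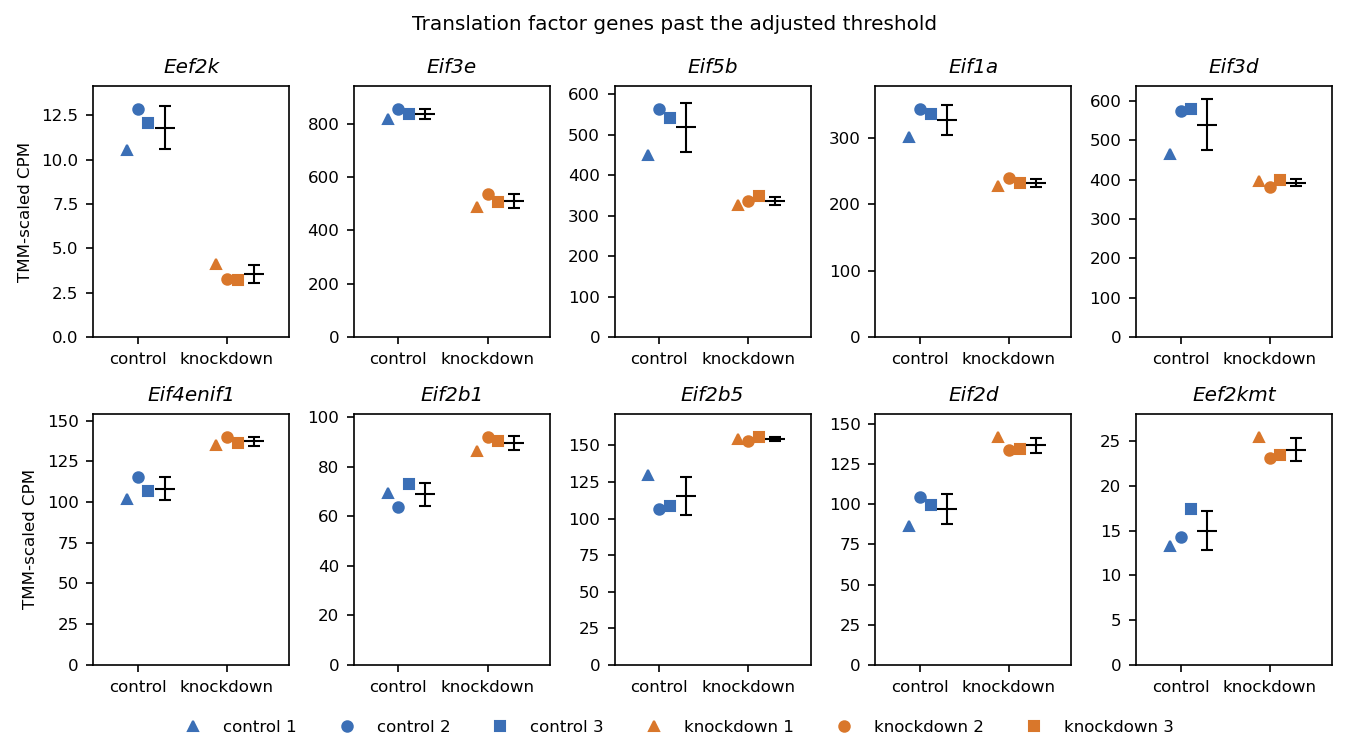
TMM-scaled CPM of the 10 translation factor genes past the adjusted threshold, 1 panel per gene with its own axis from 0. Symbols are libraries by replicate number, and bars are the mean and SD of 3 libraries. In every panel the control and knockdown libraries do not overlap, as for 44.7% of all genes tested.

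None of the 5 tested eEF1 genes passed the test in edgeR (all genes 20.6%), with 1 at an unadjusted p below 0.05 and 1 called by DESeq2, and without control 1 the count was 2 higher and 0 lower (40%, all genes 52.1%). Eef1a1, the main carrier of aminoacyl-tRNA, had 7329.7, 9054 and 8761 TMM-scaled CPM in the controls and 8041, 8701 and 8653 in the knockdown libraries. The groups overlapped and the log2 fold change was 0.01 (SE 0.155, adjusted p = 0.961). Its sister gene Eef1a2, known from muscle and neurons, had no count in any library. Among the subunits of the exchange factor, Eef1g had 985, 866 and 817 CPM in the controls and 1125, 1154 and 1141 in the knockdown libraries, all knockdown values above the controls, but missed the threshold (log2 fold change 0.36, SE 0.111, adjusted p = 0.0639). Eef1b2, the catalytic subunit, was the most uneven of the group, with 1141, 636 and 542 CPM in the controls and 873, 600.1 and 837 in the knockdown libraries. Here control 1 was the highest of the 6, and the log2 fold change of 0.00 (SE 0.30) became 0.39 without it (adjusted p = 0.0765). Eef1d had a log2 fold change of -0.07 and Eef1e1, a component of the aminoacyl-tRNA synthetase complex, one of 0.34 (adjusted p = 0.693 and 0.144).

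Among the factors that prepare and accept the start codon, Eif5b and Eif1a fell. They were 2 of 7 tested genes (28.6%, all genes 20.6%), 0 rose, and the median log2 fold change was -0.31 (-0.03 over all genes). Without control 1 it was 3 lower and 0 higher (42.9%, all genes 52.1%), with a median of -0.17. The group was formed by symbol and includes Eif1ad (log2 fold change -0.23, adjusted p = 0.218), whose part in this step was not tested. Eif5b, the GTPase that joins the large subunit, had 450.3, 564 and 542 TMM-scaled CPM in the controls and 327, 336 and 348 in the knockdown libraries. The lowest control was above the highest knockdown library (log2 fold change -0.62, SE 0.114, adjusted p = 0.0136). It lies at chr1:37998010-38055579 (ENSMUSG00000026083, + strand) and shares 16.8% of its exonic bases with Rev1 on the opposite strand. Eif1a encodes eIF1A, which with eIF1 keeps the scanning subunit open, and had 301, 343 and 336 CPM in the controls and 227, 239 and 231 in the knockdown libraries, again without overlap (log2 fold change -0.49, SE 0.0913, adjusted p = 0.0141). Both calls were lost without control 3 and without each knockdown library, with adjusted p up to 0.076 for Eif5b and 0.0852 for Eif1a. The related Eif1ax, 84.4% identical to Eif1a over 461 aligned bases, had a log2 fold change of -0.27 (adjusted p = 0.158).

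The most abundant genes of that step were Eif1 and Eif5. Eif1, the gatekeeper of start codon choice, had 437, 402 and 398 CPM in the controls and 392, 411 and 437 in the knockdown libraries (log2 fold change 0.00, adjusted p = 0.982). Eif5, which triggers GTP hydrolysis by eIF2, had 433, 505 and 486 CPM in the controls and 368, 393 and 384 in the knockdown libraries, without overlap but past no threshold (log2 fold change -0.31, SE 0.0985, adjusted p = 0.0664). Summed over its 7 genes, Eif1ad included, this group took 0.193%, 0.203% and 0.200% of all counts in the controls. In the knockdown libraries it took 0.153%, 0.156% and 0.159%. In every knockdown library that share lay below every control, control 1 included.

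Delivery of the initiator tRNA was represented by 6 genes, and of the 5 tested 1 rose and 0 fell (20%, all genes 20.6%), which became 1 higher and 3 lower without control 1 (80%, all genes 52.1%). Eif2d, a factor that can place a tRNA on the ribosome without eIF2, had 86.5, 105 and 99.8 TMM-scaled CPM in the controls and 142, 134 and 134 in the knockdown libraries. The groups did not overlap (log2 fold change 0.50, SE 0.10, adjusted p = 0.0182), and the call was lost without control 3 and without each knockdown library (adjusted p up to 0.0866). Eif2d is at chr1:131153181-131187658 (ENSMUSG00000026427, + strand). Of the eIF2 subunits, Eif2s2 (beta) was just outside the threshold with 409, 548 and 546 CPM in the controls and 358, 372 and 374 in the knockdown libraries (log2 fold change -0.44, SE 0.135, adjusted p = 0.0597). Eif2s1, the alpha subunit that stress kinases phosphorylate, had a log2 fold change of -0.27 (adjusted p = 0.113) and Eif2s3x, the gamma subunit, one of 0.16 (adjusted p = 0.54). The Y-linked copy Eif2s3y had no count in any library.

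Within eIF2B, the 5 subunit genes split. The regulatory alpha subunit Eif2b1 and the catalytic epsilon subunit Eif2b5 rose, 2 of 5 (40%, all genes 20.6%), and 0 fell, while without control 1 it was 2 higher and 2 lower (80%, all genes 52.1%). Eif2b5 had 130.0, 107 and 109 TMM-scaled CPM in the controls and 154, 153 and 156 in the knockdown libraries, with control 1 nearest to the knockdown (log2 fold change 0.42, SE 0.103, adjusted p = 0.0323). Eif2b1 had 69.5, 63.9 and 73.2 CPM in the controls and 86.5, 92.3 and 90.4 in the knockdown libraries, also without overlap (log2 fold change 0.38, SE 0.0909, adjusted p = 0.0304). They are at chr16:20498817-20509955 (Eif2b5, ENSMUSG00000003235, + strand) and chr5:124570213-124579131 (Eif2b1, ENSMUSG00000029388, - strand), and no annotated exon overlaps theirs. Both calls were lost without control 2, without control 3 and without each knockdown library (adjusted p up to 0.131 for Eif2b1 and 0.129 for Eif2b5). The gamma, beta and delta subunits Eif2b3, Eif2b2 and Eif2b4 had log2 fold changes of -0.34, -0.29 and -0.25, none past the threshold (adjusted p = 0.0609, 0.09 and 0.124). Set against each other, Eif2b5 had 287, 196 and 216 counts per 100 counts of Eif2b2 in the controls and 365, 385 and 387 in the knockdown libraries, a ratio that did not overlap.

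The eIF3 complex, the largest initiation factor and the scaffold of the small subunit, is encoded by 14 genes of the table, all tested. Eif3e and Eif3d fell and 0 rose (14.3%, all genes 20.6%). Over the 14 genes the median log2 fold change was -0.24, with 11 below 0 and 3 above. Without control 1, 9 were called lower and 2 higher (78.6%, all genes 52.1%). Eif3e (ENSMUSG00000022336, chr15:43250040-43282736, - strand), an edge subunit, had 817, 855 and 836 TMM-scaled CPM in the controls and 487, 537 and 505 in the knockdown libraries. The 3 controls lay close together, control 1 included, and the gap to the knockdown libraries was far wider than the spread in either group. Eif3e was 1.64-fold lower (836 ± 19.1 against 509.7 ± 25.2 CPM, SD, n = 3, log2 fold change -0.71, SE 0.0935, adjusted p = 0.0057).

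Eif3d, a subunit that can itself bind the cap of some messenger RNAs, had 464, 574 and 580.0 TMM-scaled CPM in the controls and 396, 382 and 398 in the knockdown libraries. The groups did not overlap, and control 1 was the control closest to the knockdown (log2 fold change -0.46, SE 0.115, adjusted p = 0.0348). The call was lost without control 2, without control 3 and without each knockdown library (adjusted p up to 0.146). At chr15:77958998-77970824 (ENSMUSG00000016554, - strand) Eif3d shares 43.3% of its exonic bases with Gm17638 on the opposite strand, so their reads may be mixed. Eif3c, a core subunit, had 916 CPM in control 1 and 1953 and 1937 in controls 2 and 3, with 1108, 1174 and 1064 in the knockdown libraries. Control 1 was thus the lowest of the 6 and the other controls the highest. Its log2 fold change was -0.52 (SE 0.284, adjusted p = 0.236), and -0.80 without control 1 (adjusted p = 2.9e-05). Eif3f and Eif3l had log2 fold changes of -0.40 and -0.39 (adjusted p = 0.0648 and 0.083), and without control 1 of -0.51 and -0.52 (adjusted p = 0.000248 and 9.5e-05).

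In the other direction stood Eif3h, the most abundant subunit gene per length, with 888, 820.1 and 800.3 TMM-scaled CPM in the controls and 979.8, 986 and 962 in the knockdown libraries. Every knockdown value was above every control, yet the test was not passed (log2 fold change 0.22, SE 0.0973, adjusted p = 0.152). Eif3i had a log2 fold change of 0.27 (adjusted p = 0.108), and without control 1 both were called higher (adjusted p = 0.000724 for Eif3h and 0.00311 for Eif3i). Shares within the complex need no library scaling, but they sum to 100%, so that a share can rise because others fall. Of all eIF3 subunit counts, Eif3e made up 13.3%, 10.8% and 10.6% in the controls and 7.86%, 8.58% and 8.19% in the knockdown libraries. For Eif3b, a scaffold subunit, the shares were 12.6%, 12.2% and 12.4% in the controls and 15.8%, 15.1% and 15.5% in the knockdown libraries, and for Eif3h 14.5%, 10.4% and 10.2% against 15.8%, 15.7% and 15.6%. None of these 3 shares overlapped between the groups. Nor did the shares of Eif3a and Eif3i, which were higher in the knockdown, and of Eif3d, Eif3f and Eif3l, which were lower. On TMM-scaled CPM the groups did not overlap for 44.7% of all genes tested, and no such background was computed for shares. The log2 fold change on that scale was -0.11 for Eif3a (adjusted p = 0.681) and 0.08 for Eif3b (adjusted p = 0.666). Without control 1 it was -0.28 for Eif3a, then called lower (adjusted p = 0.000919), and -0.02 for Eif3b (adjusted p = 0.712). The shares of the remaining subunit genes overlapped. Among them, Eif3c had 14.9% in control 1, 24.7% and 24.6% in the other controls and 17.9%, 18.7% and 17.3% in the knockdown libraries. Per 100 counts of Eif3h there were 92, 104.3 and 104.4 counts of Eif3e in the controls and 49.7, 54.5 and 52.5 in the knockdown libraries.

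**Figure D3:**
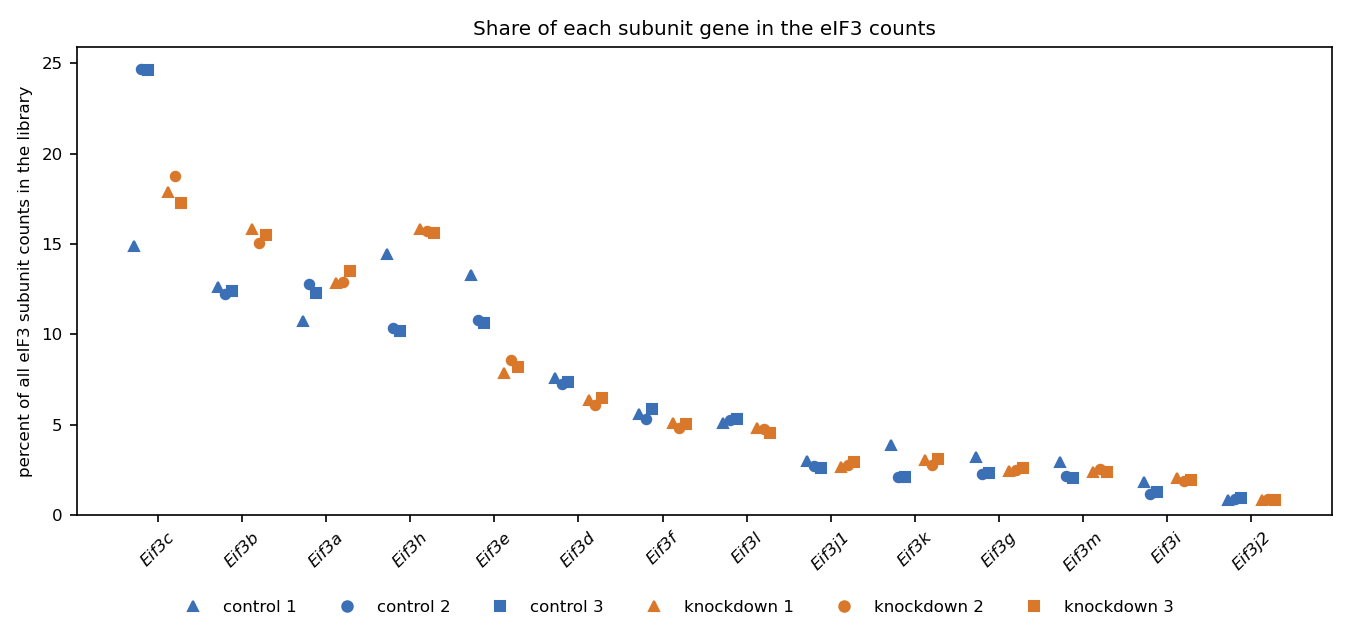
Share of each eIF3 subunit gene in the summed counts of the 14 eIF3 genes, in percent, 1 symbol per library (blue controls, orange knockdown, shape by replicate number). In all 3 knockdown libraries the shares of Eif3d, Eif3e, Eif3f and Eif3l are lower than in any control. Those of Eif3a, Eif3b, Eif3h and Eif3i are higher, and a share can rise because others fall. Control 1 departs from the other controls for Eif3c, Eif3h, Eif3e and Eif3k. On TMM-scaled CPM the groups did not overlap for 44.7% of all genes tested, and shares have no such background here.

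The promoter stretches of Eif3d, Eif3c and Eif3f are printed as examples from the 9 eIF3 genes called lower without control 1, whose products sit in 1 complex. Windows and build are as above, and capitals mark CCGGAAG (written CTTCCGG where it lies on the other strand), CACGTG or TATAAA.
Eif3d, chr15:77970815-77970904, - strand: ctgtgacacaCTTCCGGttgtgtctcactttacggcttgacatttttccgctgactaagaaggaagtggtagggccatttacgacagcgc
Eif3c, chr7:126566357-126566446, - strand: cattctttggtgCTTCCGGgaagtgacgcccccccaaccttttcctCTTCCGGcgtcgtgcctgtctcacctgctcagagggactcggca
Eif3f, chr7:108934335-108934424, + strand: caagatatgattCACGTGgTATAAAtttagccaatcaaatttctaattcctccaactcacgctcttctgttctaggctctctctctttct
The Eif3d and Eif3c stretches hold the ETS letters and the Eif3f stretch holds the other 2 motifs. Among the same 9 genes, the stretches of Eif3g and Eif3l also hold CCGGAAG, and those of Eif3a and Eif3j1 hold none of the motifs. Of eIF3 genes not called lower, Eif3m holds CCGGAAG, Eif3k holds CACGTG and Eif3b holds none. A tie between these letters and the differences was not tested. Eif3e, the subunit gene with the clearest difference, has no entry in the promoter table used.

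The cap-binding group of eIF4 genes, their helicases and binding proteins held 16 genes, 14 of them tested. Only Eif4enif1 passed, 1 higher and 0 lower (7.14%, all genes 20.6%), and without control 1 the count was 6 higher and 5 lower (78.6%, all genes 52.1%). Eif4enif1 encodes 4E-T, a protein that carries eIF4E into the nucleus and into P-bodies, and had 102, 116 and 107 TMM-scaled CPM in the controls and 135, 140.1 and 136 in the knockdown libraries. The groups did not overlap (log2 fold change 0.34, SE 0.0869, adjusted p = 0.0356). It lies at chr11:3202392-3244588 (ENSMUSG00000020454, + strand), and its call was lost without control 2, without control 3 and without each knockdown library (adjusted p up to 0.148). Just outside the threshold was Eif4e2, a cap-binding protein that does not drive initiation, with 143, 141 and 124 CPM in the controls and 110.3, 110.3 and 109 in the knockdown libraries (log2 fold change -0.31, adjusted p = 0.0552). Eif4e itself, the main cap-binding protein, had a log2 fold change of 0.10 (adjusted p = 0.441) and the scaffold Eif4g1 one of 0.34 (adjusted p = 0.0614).

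By FPKM as listed, the most abundant genes of this group were Eif4b, a helper of the helicase, and Eif4ebp1, a repressor that holds eIF4E. Reads listed for the pseudogene Eif4a-ps4 (869 FPKM) may come from Eif4a1, as described below, and are not in that order. Eif4b had 1360.0, 1749.7 and 1708 CPM in the controls and 1739.7, 1816 and 1741 in the knockdown libraries (log2 fold change 0.14, adjusted p = 0.51). For Eif4ebp1 the log2 fold change was -0.13 (adjusted p = 0.37). Its relative Eif4ebp2 had 13.2, 31.9 and 32.2 CPM in the controls and 46.4, 45.1 and 46.0 in the knockdown libraries. Control 1 was the lowest by far, the groups did not overlap, and the log2 fold change of 0.83 (SE 0.317, adjusted p = 0.111) became 0.52 without control 1 (adjusted p = 0.000798). The helicase gene Eif4a2 had wide controls, with 177, 72.6 and 116 CPM in the controls and 47.7, 65.4 and 68.0 in the knockdown libraries (log2 fold change -1.01, SE 0.32, adjusted p = 0.0678, and -0.64 without control 1, adjusted p = 0.04).

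The other helicase gene, Eif4a1, cannot be read alone, because a processed pseudogene holds nearly its whole coding sequence. Eif4a-ps4 (ENSMUSG00000101188, chr1:60703932-60705149, + strand) is 99.9% identical to the Eif4a1 transcript over 1218 bases. The copies differ at 1 base, G534A, with the base of Eif4a1 first and positions counted from 1 at the first base of the pseudogene. The stretch around that base, positions 514 to 554 in GENCODE M21 transcripts, is shown with it in capitals.
Eif4a1: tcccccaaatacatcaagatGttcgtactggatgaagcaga
Eif4a-ps4: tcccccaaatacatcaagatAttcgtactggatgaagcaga
The pseudogene begins with ATG and reads 406 codons without an internal stop. It was listed at 1044, 1094 and 1129.9 TMM-scaled CPM in the controls and 1031, 1048 and 1025 in the knockdown libraries, and Eif4a1 at 288, 226 and 239.8 against 204, 203 and 224. Which of the copies produced the reads cannot be told apart with so few differing bases, so their sum is the safer value. It was 1332, 1320 and 1370 CPM in the controls and 1236, 1251 and 1249 in the knockdown libraries, without overlap and with means 1341 and 1245. Neither gene passed the test (adjusted p = 0.626 and 0.167). The pair Eif3j1 and Eif3j2, 99.4% identical, shares the same difficulty.

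Of the last group, Eif5a helps ribosomes through hard stretches of sequence and carries the modified lysine hypusine, and Eif6 keeps the large subunit apart from the small one. Neither passed the test in edgeR, with 0 at an unadjusted p below 0.05 and 0 called by DESeq2. Eif5a had 927, 745 and 778 CPM in the controls and 740.0, 789.9 and 844 in the knockdown libraries (log2 fold change -0.05, adjusted p = 0.823). For Eif6 the log2 fold change was -0.14 (adjusted p = 0.425), and -0.23 without control 1 (adjusted p = 0.00818).

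**Figure D4:**
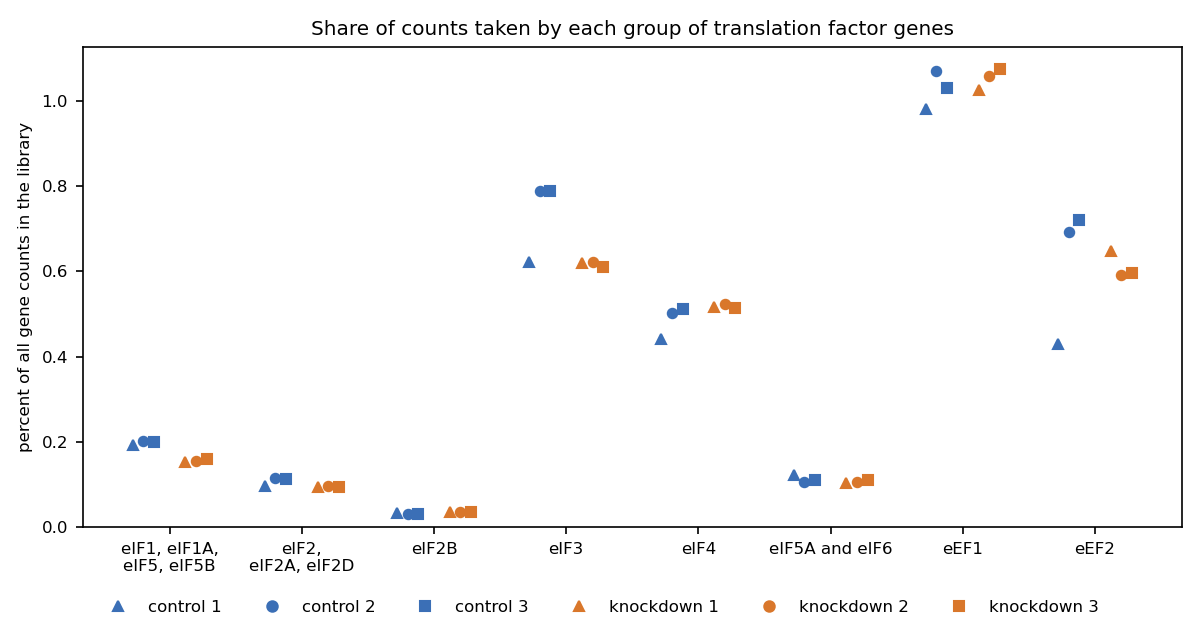
Summed share of all gene counts, in percent, taken by the genes of each role, 1 symbol per library (blue controls, orange knockdown, shape by replicate number). In all 3 knockdown libraries the start codon and eIF2 groups are lower, and eIF2B and eIF4 higher, than in any control. The gap is narrow for eIF2 and eIF4. For eIF3, eIF4 and eEF2 control 1 lies far below controls 2 and 3.

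Of the 67 genes, 9 had too few counts to test. Eef1a2, Eif2s3y, Eif4e1b and Eif2c5 had 0 counts in all libraries. Eif4ebp3 had 5, 0 and 2 counts in the controls and 3, 3 and 1 in the knockdown libraries, and Eif5a2 had 2 counts in control 1 and 0 elsewhere. The pseudogene Eif3s6-ps1 had 11, 8 and 9 counts against 5, 4 and 3. Eif1-ps3 and Eif3s6-ps4 had at most 1 count in any library. Among the 3 pseudogenes tested none passed. Eif3s6-ps2, 96% identical to Eif3e, had 6.87, 13 and 13.7 CPM in the controls and 7.21, 8.16 and 8.90 in the knockdown libraries (log2 fold change -0.47, adjusted p = 0.258), and Eif1-ps1, 95.8% identical to Eif1, had a log2 fold change of 0.04 (adjusted p = 0.93).

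A further 3 lists cover genes that control or complete the same process. Of 54 tested regulators and modifying enzymes, 3 rose and 9 fell (22.2%, all genes 20.6%), with a median log2 fold change of -0.10, and without control 1 it was 10 higher and 20 lower (55.6%, all genes 52.1%). Larp1, which binds the messenger RNAs of ribosomal proteins and many elongation factors, had 408, 462 and 459 TMM-scaled CPM in the controls and 835, 801 and 824 in the knockdown libraries. The groups were far apart (log2 fold change 0.89, SE 0.0977, adjusted p = 0.00383).

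Dohh and Dhps encode the enzymes that make hypusine on eIF5A, Dhps for the first step and Dohh for the second. Dohh had 65.3, 76.9 and 77.1 TMM-scaled CPM in the controls and 44.7, 36.8 and 35.6 in the knockdown libraries (log2 fold change -0.91, SE 0.129, adjusted p = 0.00677). Annotated genes on the same strand share 47.5% of its exonic bases. Dhps rose, from 20.7 ± 1.05 to 29.8 ± 1.86 CPM (SD, n = 3, log2 fold change 0.53, adjusted p = 0.0182), a call lost without control 2 and without each knockdown library (adjusted p up to 0.0971). Larp1 and Dohh kept their calls in all 6 fits that left out a library. Tpt1, a translationally controlled protein that binds eEF1 factors, fell by 0.97 on the log2 scale (adjusted p = 0.0083), and its call was lost without knockdown 2 or knockdown 3 (adjusted p up to 0.0541). Denr, which helps reinitiate and recycle, fell from 161 ± 18.2 to 104 ± 11.1 CPM (SD, n = 3, adjusted p = 0.018), a call lost when any knockdown library was left out (up to 0.075). Ythdf1, a reader of methylated adenosine, rose from 133 ± 10.1 to 177 ± 7.35 CPM (SD, n = 3, adjusted p = 0.0261), a call that, with a library left out, was kept only without control 1 (up to 0.121). A further 5 genes called lower include regulators of eIF2. Eif2ak2, the kinase PKR that phosphorylates eIF2, fell by 0.44 on the log2 scale (adjusted p = 0.0222), Ppp1r15b, a subunit of the phosphatase that reverses it, by 0.40 (adjusted p = 0.045), and Impact, an inhibitor of the kinase GCN2, by 0.79 (adjusted p = 0.0419). Dph2, which helps make the diphthamide residue of eEF2, fell by 0.52 (adjusted p = 0.0181) and Bzw2, a mimic of eIF5, by 0.37 (adjusted p = 0.0437). All 5 calls were lost without control 2 and without each knockdown library (adjusted p up to 0.169), and without control 3 for all but Impact.

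Among 18 tested genes of termination, recycling and ribosome rescue, 3 fell and 0 rose (16.7%, all genes 20.6%), with a median log2 fold change of -0.14, and without control 1 it was 8 lower and 0 higher (44.4%, all genes 52.1%). Pelo, which splits stalled ribosomes, had 48.9, 53.7 and 51.1 CPM in the controls and 34.1, 31.9 and 32.6 in the knockdown libraries (log2 fold change -0.64, SE 0.092, adjusted p = 0.00689). Other annotated exons cover 46.2% of its exonic bases on the same strand and 29.2% on the other. Its partner Hbs1l fell by 0.40 on the log2 scale (adjusted p = 0.0254). Nemf, which acts on the nascent chain left on the split large subunit, had 112, 162 and 161 CPM in the controls and 76.3, 82.1 and 84.9 in the knockdown libraries (log2 fold change -0.84, SE 0.158, adjusted p = 0.0147). Each knockdown library decided some of these calls: Pelo lost its call without knockdown 2 or 3 (adjusted p up to 0.0525), Hbs1l without control 2 or any knockdown library (up to 0.12) and Nemf without control 3 or any knockdown library (up to 0.0746). Other genes of the list that act on stalled ribosomes did not pass, among them Ascc3, Zfp598 and Ltn1 with log2 fold changes of 0.37, 0.15 and -0.35 (adjusted p = 0.444, 0.263 and 0.365). Without control 1 these were 0.06, 0.17 and -0.61 (adjusted p = 0.238, 0.0563 and 0.000473), and Ltn1 was then called lower. Trmt112, a partner of methyltransferases that act on release factors, had a log2 fold change of -0.70 (adjusted p = 0.0613).

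Of 17 mitochondrial translation factor genes 0 passed in edgeR (all genes 20.6%), with 4 at an unadjusted p below 0.05 and 0 called by DESeq2. Their median log2 fold change was -0.06, and without control 1 it was 3 higher and 2 lower (29.4%, all genes 52.1%). Smallest in p were Gfm2, a mitochondrial recycling factor, with a log2 fold change of -0.34 (adjusted p = 0.0643), and Mrrf, its partner, with -0.41 (adjusted p = 0.0711). Tufm, the mitochondrial carrier of aminoacyl-tRNA, had -0.39 and Ict1, a release factor of the mitochondrial ribosome, 0.43 (adjusted p = 0.127 and 0.128). The share of counts from mitochondrially encoded genes, given above, differed among the controls by more than between the groups, and its part in these values was not tested.

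**Figure D5:**
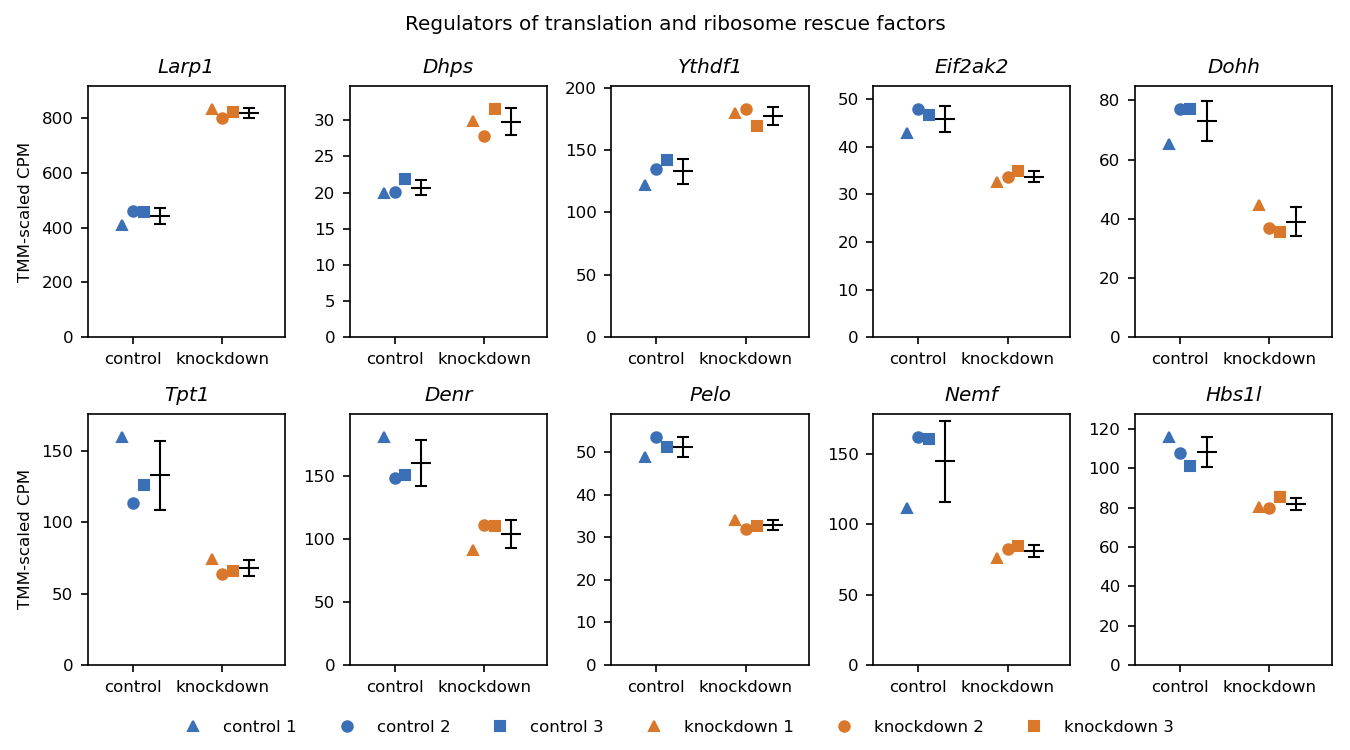
TMM-scaled CPM of 10 genes that control translation or rescue stalled ribosomes, 1 panel per gene with its own axis from 0. Symbols are libraries and bars are the mean and SD of 3 libraries. All 10 are called genes (adjusted p below 0.05), and uncalled genes of the lists are not drawn. Larp1, Dhps and Ythdf1 are higher and the other 7 lower in the knockdown. The groups do not overlap in these panels, as for 44.7% of all genes tested.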

How the data were processed

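RNA of 6 Hepa1-6 libraries was measured, 3 shNC and 3 shZfp207. The authors deposited whole-number read counts per gene, without normalization, together with FPKM values. Tools listed in the submitters' processing notes are featureCounts 1.5.0-p3 and HISAT2 2.0.5, with the build mm10 and no role stated. Groups come from the sample titles. Counts were filtered with filterByExpr, scaled by TMM and tested with edgeR 4.0.16 (quasi-likelihood, group only, all 6 libraries) in R 4.3.3, with two-sided p-values and Benjamini-Hochberg adjustment across the 11975 genes that passed the filter. An adjusted p below 0.05 was called, and the SE is the log2 fold change divided by the square root of F. Shares and ratios of counts were described without a test. Levels of different genes were compared only by the deposited FPKM. Alternatives comprised upper-quartile and RLE scaling, removal of mitochondrial genes before scaling, 2 other count filters, DESeq2 1.42.0, limma 3.58.1 with voom or on log2(FPKM + 0.1), a replicate block and each library left out. The procedure was tested on simulated data. Exonic overlap comes from GENCODE M21 (GRCm38), promoters from RefSeq (GRCm38.p6) and sequence identity from blastn. The genes, lists and tests were chosen with earlier results of these data known. The rule named Zfp207, called genes, the 2 most abundant of each role by FPKM, untested genes, the next 3 by p and 4 genes by p of each other list. Other genes, among them Eif3c, Eif3f, Eif3l, Eif3i, Eif3b, Eif4a2, Eif4ebp2, Eif4g1, Denr, Ythdf1, Eif2ak2, Ppp1r15b, Impact, Dph2, Bzw2, Ascc3, Zfp598 and Ltn1, were named after their values were seen. A gene that the rule selects among the regulators is not reported here.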

Additional observations from a re-analysis of the deposited data

How the results depend on the processing

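The counts of 5 factor genes higher and 5 lower were also given by RLE scaling, by voom and by the filter of 1 CPM in 3 libraries. In these fits 20.5% to 21% of all genes were called. Removing mitochondrial genes before scaling gave 7 and 5, and log2 FPKM gave 6 and 6 (all genes 20.6% in both). Upper-quartile scaling gave 3 higher (all genes 8.44%) and 13 lower (all genes 13.1%). No filter beyond 1 count gave 3 and 4 (all genes 11%), and DESeq2 gave 8 and 10 (all genes 22.6%). Leaving out 1 library gave 0 to 14 higher and 2 to 27 lower, the most without control 1 and the fewest without a knockdown library, where 4.37% to 5.93% of all genes were called. Same-numbered deviations correlated at 0.00449, 0.023 and 0.046, and different-numbered ones at -0.0418 to 0.0107. All are near 0, yet each knockdown library correlated highest with its same-numbered control. The values therefore do not settle whether replicate numbers pair the libraries. With a replicate block the counts were 0 higher and 3 lower (Eef2k, Eif3e and Eif5b, all genes 8.24%). Each of the 10 called genes kept its direction in every fit run, and Zfp207 stayed between -2.11 and -1.82 when 1 library was left out.

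Uncalled genes near 0 changed sign. Under upper-quartile scaling the log2 fold changes were -0.044 for Eef1a1, -0.051 for Eef2, -0.059 for Eif1 and -0.027 for Eif1-ps1. Eif1 had -0.0087 on log2 FPKM. Eef1b2 had 0.0059 with RLE, 0.012 without mitochondrial genes, 0.0069 without the filter, 0.011 in DESeq2, 0.045 with voom, 0.040 on log2 FPKM and 0.051 with the replicate block. Leaving out 1 library spread Eef1a1 from -0.074 to 0.073, Eef1b2 from -0.20 to 0.39, Eef1d from -0.14 to 0.052 and Eef2 from -0.21 to 0.13. Eif1 went from -0.036 to 0.047, Eif1-ps1 from -0.086 to 0.16, Eif2s3x from -0.014 to 0.27 and Eif3b from -0.017 to 0.14. Eif3k went from -0.14 to 0.15, Eif4g2 from -0.22 to 0.032 and Eif5a from -0.11 to 0.055. The cause was not tested. No scaling moved the median of all genes by more than 0.1. Of the 67 genes, 9 had too few counts to test.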
